A study of Mus musculus with 7 samples.

Results

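A set of 10 genes for transcription factors that build the embryonic heart, Gata4, Gata6, Tbx20, Tbx5, Tbx2, Tbx3, Hand2, Mef2c, Meis1 and Nr2f2, was followed in fibroblasts sorted from mouse hearts after birth. They were taken by name, 10 of the 54735 gene symbols counted, and all 10 passed the filter on low counts. RNA was sequenced from green fluorescent cardiac cells of 2 mouse genotypes, PostnMCM;R26eGFP and Tcf21MCM;R26eGFP. In both, tamoxifen activates a MerCreMer recombinase, placed under periostin (Postn) or under the fibroblast transcription factor Tcf21, which switches on eGFP from the R26 locus. The sorted cells are therefore those that expressed the driver gene when tamoxifen acted, together with their descendants. The groups were PostnMCM;R26eGFP cells from animals of 7 days (Postn P7, 2 libraries), Tcf21MCM;R26eGFP cells from animals of 7 days (Tcf21 P7, 2 libraries) and Tcf21MCM;R26eGFP cells from animals of 30 days (Tcf21 P30, 3 libraries). Every group pooled males and females. Whether the libraries of a group came from separate animals or sorts is not stated, so a p-value here reflects only how much these libraries varied, which may be partly technical.

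In the embryo these factors work as a network. GATA zinc finger proteins, T-box proteins, the basic helix-loop-helix protein HAND2 and the MADS-box protein MEF2C bind enhancers of heart genes together and activate one another's genes. Several of them are known not only from heart muscle but also from the mesenchyme of the heart, including epicardium-derived fibroblasts and valve cells, and combinations of GATA4, TBX5, MEF2C and HAND2 have been used to convert fibroblasts towards a cardiomyocyte fate.

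All 10 genes were detected in every library. Of them, 3 changed between groups. Nr2f2 was higher in Postn P7 than in either Tcf21 group, and Gata4 and Tbx20 fell in the Tcf21-traced cells between 7 and 30 days. The other 7, among them Gata6, Tbx5, Hand2, Mef2c and Meis1, did not pass the test in any of the 3 comparisons. Of all genes tested, 12% were called between Postn P7 and Tcf21 P7, 31.8% between the ages and 24.2% between Postn P7 and Tcf21 P30. Tbx2, Tbx3 and Mef2c were higher in 1 of the 3 Tcf21 P30 libraries than in the other two.

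Libraries held 15207835 to 18519528 counts. Levels are normalised CPM, counts per 1000000 counts of a library after TMM scaling (edgeR). Differences are log2 fold changes with their standard errors, and a gene is called where the p-value of edgeR's quasi-likelihood test, adjusted by Benjamini-Hochberg over 17636 genes, is under 0.05. Fibroblast transcripts dominated, with 10 fibroblast markers summing to 25641 to 49924 CPM per library. Markers of other cells were present as well. The sum of 10 endothelial markers was 3837 CPM in Tcf21 P30 replicate 1 and 1582 CPM in Postn P7 replicate 1, against 977 to 1287 CPM in the other 5 libraries. Each comparison was also fitted without these 2 libraries, an alternative chosen after the sums were seen, and values are given where it changed a call or a sign. The 12 cardiomyocyte markers looked at summed to 579 to 1458 CPM, with Tnnt2, Myh6 and Ttn detected in every library.

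**Figure D1:**
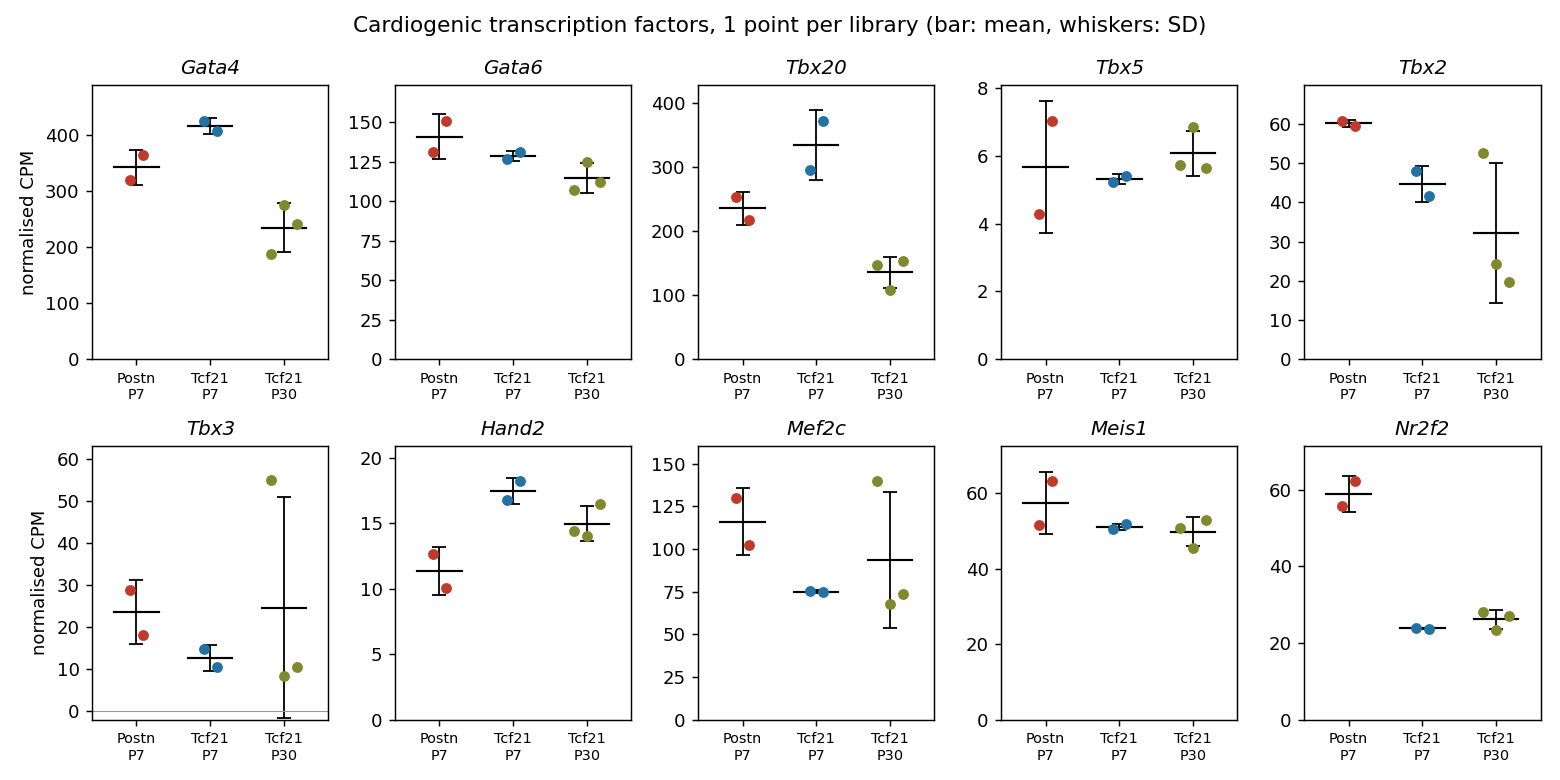
Normalised CPM of the 10 genes, with 1 point per library in Postn P7 (n = 2), Tcf21 P7 (n = 2) and Tcf21 P30 (n = 3), a bar at the group mean and whiskers of 1 SD. Nr2f2 separates Postn P7 (55.6 and 62.1 CPM) from the other 5 libraries (23.3 to 28.2 CPM), and 1 Tcf21 P30 library stands apart for Tbx2, Tbx3 and Mef2c.

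GATA4 and GATA6 are related zinc finger activators that share DNA sites and partly substitute for each other in heart development. Gata4 (chromosome 14, 63198922 to 63271692 in GRCm38, minus strand, protein coding) had 319.9 and 363 CPM (Postn P7). It reached 425 and 406 CPM (Tcf21 P7), and 188, 274 and 240.3 CPM (Tcf21 P30). The 3 groups did not overlap, and the 30-day libraries were the lowest. Between 7 and 30 days Gata4 fell from 415 ± 13.6 CPM (SD, n = 2) to 234 ± 43.3 CPM (SD, n = 3), to 56.4% of the earlier level. The log2 change was -0.83 ± 0.15 (edgeR quasi-likelihood test, adjusted p = 0.00502). The call was lost without Tcf21 P7 replicate 1 (-0.79 ± 0.22, adjusted p = 0.0575), the highest adjusted p among 16 alternatives, of which the lowest gave 6.93e-10. Gata4 was also higher in Postn P7 (342 ± 30.6 CPM; SD, n = 2) than in Tcf21 P30, by 0.55 ± 0.15 (edgeR adjusted p = 0.0333), but 6 of 16 alternatives lost this call, with adjusted p from 0.00011 to 0.176. Leaving out either library of Postn P7 or of Tcf21 P7, or replicate 3 of Tcf21 P30, was enough. Both 7-day groups differed by -0.28 ± 0.17 (edgeR adjusted p = 0.298), with a 95% interval from -0.67 to 0.10.

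Gata6 (chromosome 18, 11052064 to 11085635, plus strand, protein coding) had a smaller fitted change with age than Gata4 and was not called in any comparison. It had levels of 131 and 151 CPM (Postn P7), 127 and 131 CPM (Tcf21 P7) and 107, 125 and 112 CPM (Tcf21 P30). The 30-day libraries were again the lowest, just below the 7-day libraries of Tcf21-traced cells. The change with age was -0.17 ± 0.10 (edgeR adjusted p = 0.245), with a 95% interval from -0.40 to 0.07, which leaves out a fall of the size fitted for Gata4. Against Tcf21 P30, Postn P7 differed by 0.30 ± 0.10 (edgeR adjusted p = 0.0696; 0.0116 to 0.371 over 16 alternatives, of which 3 passed the threshold). Those 3 were library size alone as the scaling (0.40 ± 0.085, adjusted p = 0.0116), the fit without Tcf21 P30 replicate 2 (0.39 ± 0.099, adjusted p = 0.0339) and the fit without both endothelial-rich libraries (0.34 ± 0.11, adjusted p = 0.0287). The ratio of Gata4 to Gata6 counts, which does not depend on scaling, was 2.44 and 2.40 in Postn P7, 3.36 and 3.09 in Tcf21 P7, and 1.76, 2.19 and 2.14 in Tcf21 P30. It was highest in both Tcf21 P7 libraries and lowest in the 30-day libraries, without overlap. The difference between the changes of Gata4 and Gata6 was not tested beyond these ratios.

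TBX20 and TBX5 are T-box factors of the working heart. TBX20 acts as an activator or a repressor depending on the gene, and TBX5 is an activator of the left heart and atria that binds with GATA4. Tbx20 (chromosome 9, 24718138 to 24774303, minus strand, protein coding) had 254 and 218 CPM (Postn P7), 296 and 373 CPM (Tcf21 P7) and 146, 108 and 153 CPM (Tcf21 P30). The groups did not overlap, in the same order as for Gata4. With age it fell from 334 ± 54.6 CPM (SD, n = 2) to 136 ± 24.0 CPM (SD, n = 3), to 40.6% of the earlier level, a log2 change of -1.30 ± 0.17 (edgeR adjusted p = 0.00114). This call held in each of 16 alternatives, with values from -1.46 to -1.12 and adjusted p up to 0.0115. Postn P7 (236 ± 25.5 CPM; SD, n = 2) was higher than Tcf21 P30 by 0.79 ± 0.17 (edgeR adjusted p = 0.0118), a call lost without Postn P7 replicate 1 (0.68 ± 0.21, adjusted p = 0.0775) and without both endothelial-rich libraries (0.73 ± 0.24, adjusted p = 0.0857). Adjusted p over the 16 alternatives ran from 1.8e-09 to 0.0857. Between the 7-day groups the difference was -0.50 ± 0.19 (edgeR adjusted p = 0.115), and 1 of 16 alternatives, the test without a filter on low counts, called it (adjusted p = 0.00661; up to 0.491 over the alternatives).

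The 250 bases before the RefSeq start site of Tbx20 are shown because it had the largest fall among the 10 genes between the ages. They were searched, with the windows of the other members that RefSeq's table held (Hand2, Meis1, Mef2c and Nr2f2), for sites of the factors in this list. The letters searched on both strands were the GATA sites AGATAA and TGATAA, the T-box core GGTGTG, the MEIS core TGACAG and the nuclear receptor core AGGTCA, none of which overlapped another in these windows. Matches are in capitals, and the sequence of Tbx20 held none of them.
Tbx20, chr9:24774304-24774553 (GRCm38.p6, minus strand): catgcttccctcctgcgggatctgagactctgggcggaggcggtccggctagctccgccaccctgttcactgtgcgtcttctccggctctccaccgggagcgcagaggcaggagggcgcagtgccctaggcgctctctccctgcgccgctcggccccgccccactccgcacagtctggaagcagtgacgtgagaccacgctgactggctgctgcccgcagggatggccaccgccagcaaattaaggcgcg
Of 32851 such windows of the mouse genome, 16.6% hold a GATA site, 16.3% the T-box core, 15.9% the MEIS core and 14% the nuclear receptor core. G and C made up 68.8% of the Tbx20 window.

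The falls of Gata4 and Tbx20 with age went along with changes in some transcripts of other cell types. Cardiomyocytes and epicardial cells are known to express both genes. The 12 cardiomyocyte markers, none of them at 0 in any library, gave sums of 1161 and 1010.4 CPM (Tcf21 P7) and of 1236, 696 and 715 CPM (Tcf21 P30). Of the 12, 3 were called lower at 30 days, against 15% of all genes. In Tcf21 P30 replicate 1 this sum was above that of both Tcf21 P7 libraries, with Ttn at 445 CPM against 147 and 103 CPM. Myh7, Tnnt2 and Ryr2 were also above both there. The other markers of the list were below both, among them Actc1 (139 CPM against 266 and 240 CPM). Gata4 in that library was at 188 CPM, the lowest of the 7 libraries, and Tbx20 at 146 CPM. The 10 epicardial markers gave 119 and 109 CPM (Tcf21 P7) and 54.5, 30.6 and 50.3 CPM (Tcf21 P30). Of 9 tested, 1, Tbx18, was called lower, against the same 15%. Tbx18 made up most of these sums, at 92.4 and 87.1 CPM (Tcf21 P7) and 35.8, 28.5 and 48.2 CPM (Tcf21 P30). Of the 10 markers, 1 and 0 were at 0 counts in the Tcf21 P7 libraries and 1, 5 and 5 in those of Tcf21 P30. In the Postn P7 libraries the sums were 131 and 46.0 CPM. In Postn P7 replicate 2, 5 of these 10 markers (Upk3b, Upk1b, Msln, Lrrn4 and Muc16) were at 0 counts, while Tbx18 had 609, Wt1 66 and Krt19 34 counts. The 9 macrophage markers, none at 0, gave 1160 and 1142 CPM (Tcf21 P7) and 398 to 595 CPM (Tcf21 P30), with 7 of 9 called lower, against 15%. The part of these cell types in the falls of Gata4 and Tbx20 was not tested. In bulk RNA, fewer cells that express a gene and less RNA of it per cell cannot be told apart.

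Tbx5 (chromosome 5, 119832668 to 119885219, plus strand, protein coding) had the lowest level of the 10, with 81 to 110 counts per library. It had levels of 4.28 and 7.05 CPM (Postn P7), 5.23 and 5.42 CPM (Tcf21 P7) and 5.74, 6.85 and 5.66 CPM (Tcf21 P30). The libraries of Postn P7 spanned all the others. The difference between ages was 0.19 ± 0.25 (edgeR adjusted p = 0.597), with a 95% interval from -0.40 to 0.78, and that between the 7-day groups was 0.08 ± 0.28 (edgeR adjusted p = 0.865).

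TBX2 and TBX3 are T-box repressors that keep the chamber programme off in the atrioventricular canal and the conduction system, and are also made by other mesenchymal cells. Tbx2 (chromosome 11, 85832551 to 85841948, plus strand, protein coding) had levels of 60.9 and 59.6 CPM (Postn P7), 48.0 and 41.5 CPM (Tcf21 P7) and 52.6, 24.2 and 19.7 CPM (Tcf21 P30). Tbx3 (chromosome 5, 119670669 to 119684724, plus strand, protein coding) had levels of 28.9 and 18.1 CPM (Postn P7), 14.8 and 10.4 CPM (Tcf21 P7) and 54.9, 8.24 and 10.5 CPM (Tcf21 P30). Both genes were higher in each Postn P7 library than in either Tcf21 P7 library, and at 30 days both were highest in replicate 1. Within Tcf21 P30 the highest library exceeded the lowest 2.67-fold for Tbx2 and 6.66-fold for Tbx3. Neither gene was called in any comparison, and their intervals were wide: for Tbx3 the difference between the 7-day groups was 0.90 ± 1.01 (edgeR adjusted p = 0.603).

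Leaving out Tcf21 P30 replicate 1 changed the picture for both repressors. Tbx2 was then lower at 30 days than in Tcf21 P7 by -1.03 ± 0.14 (edgeR adjusted p = 0.000745), compared with -0.48 ± 0.42 (adjusted p = 0.429) with all libraries. Without both endothelial-rich libraries it was -1.03 ± 0.14 (adjusted p = 7.19e-05), and over 16 alternatives its adjusted p ran from that value to 0.707. Tbx3 turned from 0.96 ± 0.94 (edgeR adjusted p = 0.481) to -0.42 ± 0.28 (adjusted p = 0.277; 1.66e-05 to 0.771 over its alternatives). The lowest of these came from the fit without a filter on low counts, the only alternative that called Tbx3 between the ages. In that fit Tbx3 was higher at 30 days, not lower. Against Tcf21 P30 without that library, Postn P7 was higher for Tbx2 by 1.47 ± 0.14 (edgeR adjusted p = 0.000105) and for Tbx3 by 1.33 ± 0.27 (adjusted p = 0.0081). With all libraries these differences were 0.91 ± 0.42 (adjusted p = 0.182; 1.43e-08 to 0.403 over the alternatives) and -0.06 ± 0.90 (adjusted p = 0.974; 0.0081 to 0.999). Removing this 30-day library also changed calls between the 7-day groups. Tbx2 was then called at 0.44 ± 0.13 (edgeR adjusted p = 0.0485; 0.0358 to 0.82) and Tbx3 at 0.92 ± 0.27 (adjusted p = 0.0493; 0.000303 to 0.864), at almost the same size as before. Without both endothelial-rich libraries neither was called there (0.42 ± 0.16, adjusted p = 0.0807, and 0.53 ± 0.24, adjusted p = 0.151). Against Tcf21 P30 both then were, Tbx2 at 1.44 ± 0.16 (edgeR adjusted p = 2.35e-05) and Tbx3 at 0.95 ± 0.25 (adjusted p = 0.0139).

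Tcf21 P30 replicate 1 was the library richest in endothelial transcripts, at 3837 CPM over 10 markers against 1076 and 1287 CPM in the other 30-day libraries. Its 11 pericyte and smooth muscle markers summed to 2205 CPM against 1022 and 1093 CPM, with none of either list at 0. Gata2, a GATA factor of endothelial and blood cells, stood at 62.4 CPM there and at 9.20 and 11.6 CPM in the other two. The part of these cells in the levels of Tbx2 and Tbx3 was not tested. The antisense gene Tbx3os1, whose exons share 115 bases with those of Tbx3, was also highest there, with 75 counts in that library and 8 to 56 in the others. Whether the counting used strand is not given in the sources used here, so reads of the shared bases cannot be assigned to one of the 2 genes.

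**Figure D2:**
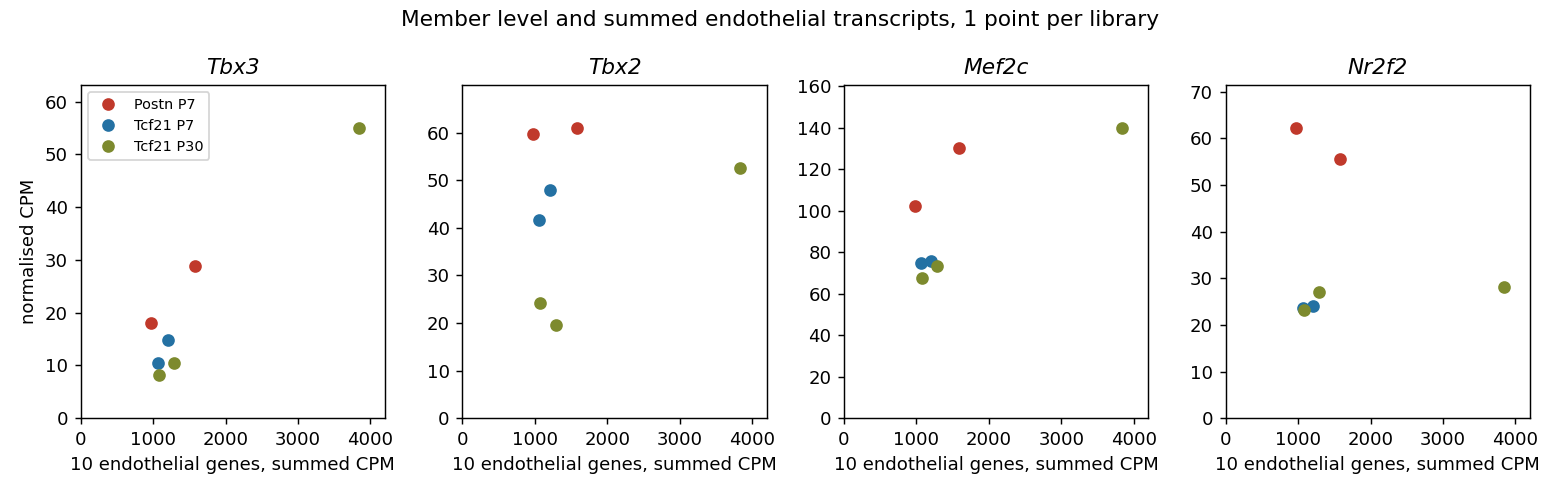
Normalised CPM of Tbx3, Tbx2, Mef2c and Nr2f2 against the summed normalised CPM of 10 endothelial markers, with 1 point per library coloured by group. The Tcf21 P30 library at 3837 CPM of endothelial transcripts lies far above the other 30-day libraries for Tbx3, Tbx2 and Mef2c. For Nr2f2, at 28.2 CPM, it lies slightly above them (23.3 and 27.0 CPM).

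MEF2C is a MADS-box activator of muscle genes that is also needed in endothelial and neural crest cells. Mef2c (chromosome 13, 83504034 to 83667080, plus strand, protein coding) had 130.1 and 102 CPM (Postn P7) and 75.6 and 74.6 CPM (Tcf21 P7). At 30 days it had 139.7, 67.8 and 73.5 CPM. Both Postn P7 libraries were above both Tcf21 P7 libraries, and Tcf21 P30 replicate 1 was the highest of all. The difference between the 7-day groups was 0.63 ± 0.36 (edgeR adjusted p = 0.306), and 4 of 16 alternatives called it. Without Tcf21 P30 replicate 1 it was 0.64 ± 0.12 (edgeR adjusted p = 0.0121), and leaving out both endothelial-rich libraries gave 0.45 ± 0.11 (adjusted p = 0.015; 0.00035 to 0.635 over all alternatives). The change with age was 0.32 ± 0.33 (edgeR adjusted p = 0.509), and it was -0.08 ± 0.13 without Tcf21 P30 replicate 1 (adjusted p = 0.641; 0.101 to 0.7 over the alternatives). Against the 30-day cells, Postn P7 differed by 0.31 ± 0.33 (edgeR adjusted p = 0.565), by 0.72 ± 0.13 without that library (adjusted p = 0.00306; up to 0.888) and by 0.53 ± 0.11 without both endothelial-rich libraries (adjusted p = 0.00359).

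HAND2 is a basic helix-loop-helix factor of the right ventricle, the outflow tract and the neural crest. Hand2 (chromosome 8, 57320983 to 57324633, plus strand, protein coding) had levels of 12.6 and 10.1 CPM (Postn P7), 16.8 and 18.2 CPM (Tcf21 P7) and 14.4, 14.0 and 16.5 CPM (Tcf21 P30). Both Postn P7 libraries were below the other 5. The difference between the 7-day groups, -0.62 ± 0.17, missed the threshold (edgeR adjusted p = 0.0539), with a 95% interval from -1.02 to -0.22. It passed in 2 of 16 alternatives, without Tcf21 P30 replicate 1 (-0.61 ± 0.18, adjusted p = 0.0466) and without both endothelial-rich libraries (-0.79 ± 0.21, adjusted p = 0.019; up to 0.284 over the alternatives). Against Tcf21 P30, Postn P7 differed by -0.40 ± 0.16 (edgeR adjusted p = 0.111), and 1 of 16 alternatives called it, the fit without both endothelial-rich libraries (-0.60 ± 0.21, adjusted p = 0.0497; up to 0.436). Hand2 shares 461 exonic bases with Hand2os1, a non-coding gene of the opposite strand that was not analysed here. Its paralog Hand1 had 0 counts in all 7 libraries, which allows up to 0.159 to 0.192 CPM per library, for counting error only. The window before the Hand2 start site is printed because, of the 5 members with a window, it alone held GATA sites, 210 to 215 and 167 to 172 bases before the start.
Hand2, chr8:57320733-57320982 (GRCm38.p6, plus strand): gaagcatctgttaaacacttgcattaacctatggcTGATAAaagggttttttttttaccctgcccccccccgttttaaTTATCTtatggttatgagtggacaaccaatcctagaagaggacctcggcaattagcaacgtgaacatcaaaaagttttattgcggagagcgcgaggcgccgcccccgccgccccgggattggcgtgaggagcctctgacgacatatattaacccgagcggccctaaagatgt
The capitals mark TGATAA in the direction of the gene and AGATAA on the other strand. Among windows not printed, that of Meis1 held 1 T-box core. The Mef2c window starting at 83523406 held 1 T-box core and 1 nuclear receptor core, and that starting at 83573357 held 2 nuclear receptor cores. A match to these letters is a description of the sequence and shows no binding.

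MEIS1 is a homeodomain protein that binds DNA with PBX partners and is known for restraining the division of heart muscle cells after birth. Meis1 (chromosome 11, 18879817 to 19018985, minus strand, protein coding) had the smallest fitted change of the 10 between the ages. It had levels of 51.7 and 63.2 CPM (Postn P7), 50.6 and 51.8 CPM (Tcf21 P7) and 50.9, 45.5 and 53.0 CPM (Tcf21 P30), with all 3 groups overlapping. The change with age was -0.04 ± 0.12 (edgeR adjusted p = 0.822), with a 95% interval from -0.31 to 0.23. Gm16140, an antisense transcript that shares 896 exonic bases with Meis1, had 5 and 15 counts in Tcf21 P7, 38 and 37 in Postn P7 and 31 to 46 in Tcf21 P30, and was called higher in both of the latter. The differences were 1.92 ± 0.51 (edgeR adjusted p = 0.0471) and 2.03 ± 0.48 (adjusted p = 0.0147), on few counts. Gm16140 was named after its values were seen.

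NR2F2, also called COUP-TFII, is an orphan nuclear receptor that sets atrial identity in heart muscle and venous identity in endothelium, and is found in many mesenchymal cells. Nr2f2 (chromosome 7, 70351944 to 70366735, minus strand, protein coding) had 55.6 and 62.1 CPM (Postn P7). It had 24.0 and 23.7 CPM (Tcf21 P7), and 28.2, 23.3 and 27.0 CPM (Tcf21 P30). Both Postn P7 libraries lay at about the same height, well above all 5 libraries of Tcf21-traced cells, which overlapped between the ages. Nr2f2 was 2.47-fold higher in Postn P7 (58.9 ± 4.60 CPM; SD, n = 2) than in Tcf21 P7 (23.9 ± 0.189 CPM; SD, n = 2), a log2 difference of 1.30 ± 0.13 (edgeR adjusted p = 0.00286). Against Tcf21 P30 (26.2 ± 2.57 CPM; SD, n = 3) the difference was 1.17 ± 0.11 (edgeR adjusted p = 0.000256). Both calls held in all 16 alternatives, with values from 1.21 to 1.41 and from 1.08 to 1.30 and adjusted p up to 0.0373 and 0.00283. The change with age in Tcf21-traced cells was 0.13 ± 0.12 (edgeR adjusted p = 0.421), with a 95% interval from -0.14 to 0.40. Relative to Nr2f6, a more distant receptor of the same family, the ratio of counts was 0.536 and 0.6 in Postn P7 against 0.182 and 0.181 in Tcf21 P7 and 0.192 to 0.285 in Tcf21 P30. Nr2f1, the closest paralog, was measured at 1.62 to 2.64 CPM over the 7 libraries and was not called.

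**Figure D3:**
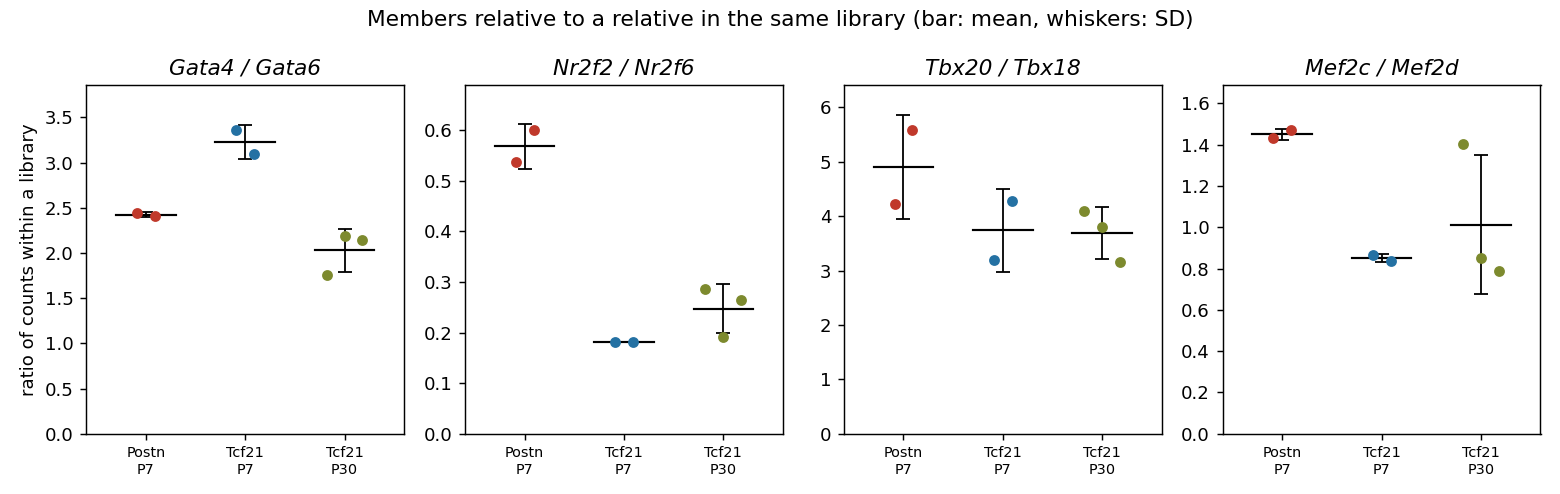
Ratio of the counts of 2 related genes within each library, for Gata4 over Gata6, Nr2f2 over Nr2f6, Tbx20 over Tbx18 and Mef2c over Mef2d, with 1 point per library, a bar at the mean and whiskers of 1 SD. The ratio of Gata4 to Gata6 is 1.76 to 2.19 at 30 days against 3.09 and 3.36 in Tcf21 P7, and that of Nr2f2 to Nr2f6 is 0.536 and 0.6 in Postn P7 against 0.181 to 0.285 elsewhere.

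The 250 bases before the RefSeq start site of Nr2f2 are shown because it was the member that set Postn P7 apart, and they too held none of the letters searched.
Nr2f2, chr7:70366747-70366996 (GRCm38.p6, minus strand): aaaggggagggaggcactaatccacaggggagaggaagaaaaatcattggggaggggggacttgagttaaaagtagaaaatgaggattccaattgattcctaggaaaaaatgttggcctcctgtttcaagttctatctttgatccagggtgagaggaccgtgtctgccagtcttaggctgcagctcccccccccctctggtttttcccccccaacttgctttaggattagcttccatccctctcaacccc
G and C made up 50% of this window. On the opposite strand the non-coding gene B130024G19Rik (chromosome 7, 70364910 to 70489972) runs across the start of Nr2f2 and shares 643 exonic bases with it. It was named after its values were seen. It had 287 and 234 counts in Postn P7, 61 and 34 in Tcf21 P7 and 41 to 86 in Tcf21 P30, and so was high in the same 2 libraries as Nr2f2. The difference was 2.47 ± 0.42 between the 7-day groups (edgeR adjusted p = 0.0145) and 2.09 ± 0.36 against Tcf21 P30 (adjusted p = 0.00475). Without a stated strand setting, reads of the shared bases cannot be told apart. Nr2f2 itself had 1052 and 970 counts in the 2 Postn P7 libraries.

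Sums of some marker lists were higher in Postn P7, as Nr2f2 was. The 11 pericyte and smooth muscle markers, none at 0, gave sums of 2829 and 2064 CPM (Postn P7), 1543 and 1529 CPM (Tcf21 P7) and 1022 to 2205 CPM (Tcf21 P30), and 1 of 11, Pdgfrb, was called higher in Postn P7 than in Tcf21 P7, against 6.52% of all genes. The 7 Schwann cell markers summed to 20.4 and 32.9 CPM, 5.29 and 5.94 CPM, and 6.98 to 25.9 CPM. Of 6 tested, 3 were called higher in Postn P7 than in Tcf21 P7, against 6.52% of all genes. In the Tcf21 P7 libraries 2 and 1 of the 7 were at 0. Both Postn P7 libraries lay above both Tcf21 P7 libraries for 8 of the 11 pericyte and smooth muscle markers. Of all genes, 64% did not overlap in either direction, above or below. Against Tcf21 P30 both Postn P7 libraries lay above for 6 of the 11, where 50.6% of all genes did not overlap in either direction. The shares of all genes that lay above alone were not counted. Abcc9 had 313 and 226 CPM (Postn P7), 103 and 89.0 CPM (Tcf21 P7) and 161, 60.8 and 67.3 CPM (Tcf21 P30). Kcnj8 had 137 and 105 CPM, 54.6 and 51.4 CPM, and 94.4, 35.3 and 36.3 CPM, and neither gene was called. In Tcf21 P30 replicate 1, where the pericyte and Schwann cell sums were the highest of that group, Nr2f2 was at 28.2 CPM, the highest of the Tcf21-traced libraries. Between the 7-day groups the 9 macrophage markers went the other way, at 324 and 470.3 CPM (Postn P7) against 1160 and 1142 CPM (Tcf21 P7). Of the 9, 7 were called lower in Postn P7, against 5.49% of all genes. Tcf21 P30 had sums of 398 to 595 CPM, which overlapped those of Postn P7. Against Tcf21 P30, 1 of 9 was called lower in Postn P7, where 12.5% of all genes were. The part of these cells in the level of Nr2f2 was not tested. The fit without both endothelial-rich libraries kept only replicate 2 of Postn P7. That library had sums of 2064 CPM for the pericyte and smooth muscle markers and 32.9 CPM for the Schwann cell markers.

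**Figure D4:**
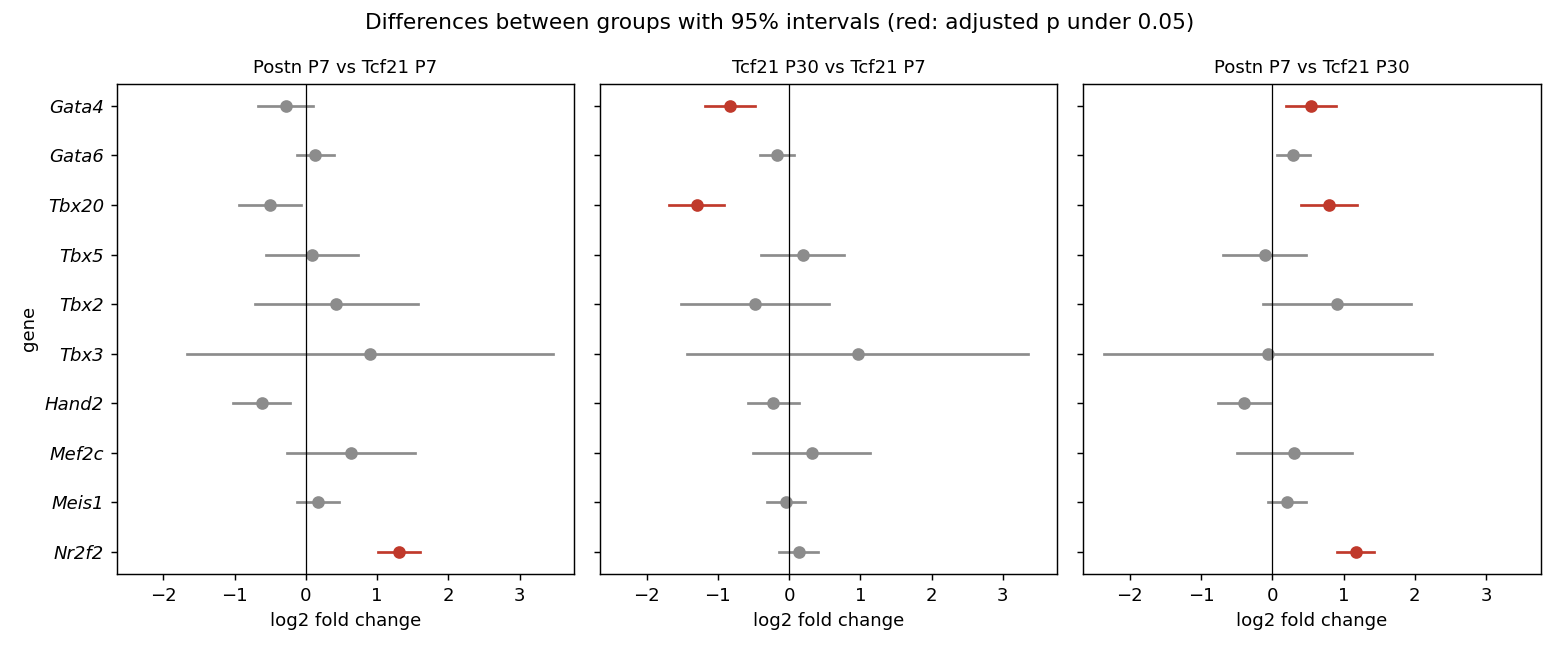
Log2 fold changes of the 10 genes (points) with 95% intervals (lines) in the 3 comparisons, with called genes in red. Nr2f2 is called in both comparisons of Postn P7, Gata4 and Tbx20 in both comparisons of Tcf21 P30, and the intervals of Tbx3 reach from -1.67 to 3.47 between the 7-day groups.

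Counted over the list, 1 of 10 genes was higher in Postn P7 than in Tcf21 P7, where 12% of all genes tested were called in either direction, 6.52% higher and 5.49% lower. Between the ages 2 of 10 were lower, where 31.8% of all genes were called and 15% were lower. Between Postn P7 and Tcf21 P30, groups that differ in both driver and age, 3 of 10 were higher, where 24.2% were called and 11.7% were higher. The libraries of the 2 groups did not overlap for 7, 5 and 6 of the 10, against 64%, 61.8% and 50.6% of all genes. With 10 genes in the list these shares are coarse, and whether they differ from those of all genes was not tested. Single libraries moved the counts: without Tcf21 P30 replicate 1 there were 5, 3 and 6 called members, without Tcf21 P7 replicate 1 there was 1 between the ages, and without Postn P7 replicate 1 there was 1 in the last comparison. The median log2 difference of the 10 was 0.15, -0.10 and 0.30, against 0.00, 0.03 and -0.01 for all genes. The comparisons share their libraries pairwise, so their calls are not independent of each other. Of all genes, 1149 were higher and 969 lower in Postn P7 than in Tcf21 P7, which became 1741 and 472 with library size alone as the scaling (a median shift of 0.113) and 1187 and 647 with upper-quartile factors. Against Tcf21 P30, 2070 and 2206 became 2802 and 1725 with library size alone (a shift of 0.106).

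Per kilobase of merged exons, a scale on which genes can be ranked within a group, Gata4 led in all 3 groups, at 87.5 ± 7.84 in Postn P7, 106 ± 3.48 in Tcf21 P7 and 60.0 ± 11.1 CPM per kb in Tcf21 P30 (SD). In Tcf21 P7 it was followed by Tbx20 (27.9 ± 4.56 CPM per kb), Gata6 (19.8 ± 0.505) and Tbx2 (12.3 ± 1.25). Hand2 (7.43 ± 0.424), Meis1 (4.86 ± 0.0791), Mef2c (4.78 ± 0.0440), Nr2f2 (2.77 ± 0.0219) and Tbx3 (1.90 ± 0.469) came next, and Tbx5 (1.14 ± 0.0296) was the lowest. In Tcf21 P30 Gata6 (17.6 ± 1.45 CPM per kb) stood above Tbx20 (11.3 ± 2.00), as it did in Postn P7 (21.7 ± 2.18 and 19.6 ± 2.13), while in Tcf21 P7 it stood below. In Postn P7 Nr2f2 (6.83 ± 0.533 CPM per kb) stood above Hand2 (4.83 ± 0.777) and Meis1 (5.45 ± 0.768), where in Tcf21 P7 it was below both. Merged exons count every annotated isoform, 15715 bases for Mef2c and 2351 for Hand2, and so understate genes whose long isoforms are not used.

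Relatives and partners of these factors were followed in a list of 48 symbols, 46 of them in the table and 37 tested. The other 2 symbols are newer names of Mkl1 and Mkl2. Between the ages 8 of 37 were lower and 0 higher in Tcf21 P30, against 15% and 16.7% of all genes, with a median of -0.22 against 0.03. DESeq2 and limma-voom called 8 as well, and 13 had an unadjusted p under 0.05 in either direction. The largest falls were those of Irx4 (-2.58 ± 0.50), an Iroquois factor of the ventricle, Nkx2-5 (-1.69 ± 0.45), the homeobox gene of heart muscle, Hopx (-1.57 ± 0.34), a homeodomain-only cofactor, and Tbx18 (-1.26 ± 0.25), a T-box gene of the epicardium. Irx4 and Nkx2-5 are also in the list of cardiomyocyte markers and were low, at 0.189 to 2.10 CPM for Irx4 and 0.761 to 3.13 CPM for Nkx2-5. Tbx18 had 92.4 and 87.1 CPM (Tcf21 P7) and 35.8, 28.5 and 48.2 CPM (Tcf21 P30). It fell beside Tbx20, and the ratio of Tbx20 to Tbx18 counts overlapped between the groups, at 3.20 and 4.28 in Tcf21 P7 and 3.17 to 4.09 in Tcf21 P30. Among the cofactors of GATA proteins, Zfpm1 fell (-0.96 ± 0.27, edgeR adjusted p = 0.0306), while Zfpm2 was measured at 60.8 to 88.8 CPM over the 7 libraries and was not called (0.19 ± 0.14 between the ages). The count of 8 rested on both Tcf21 P7 libraries and was 0 without replicate 1 and 1 without replicate 2 of that group. It was 5 without Tcf21 P30 replicate 3 and 15 without both endothelial-rich libraries.

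In Postn P7, 2 of the 37 relatives were higher and 2 lower than in Tcf21 P7, shares near the 6.52% and 5.49% of all genes. Gata3, a GATA factor best known from T cells and sympathetic neurons, was measured at 9.99 and 4.42 CPM against 1.59 and 1.73 CPM (2.12 ± 0.46, edgeR adjusted p = 0.0275). Tead1, the DNA-binding partner of YAP, was measured at 33.7 and 29.1 CPM against 19.3 and 16.3 CPM (0.82 ± 0.16, edgeR adjusted p = 0.0182). Srf (-0.59 ± 0.14), the MADS-box factor of immediate early and contractile genes, and Smarcd3 (-0.44 ± 0.11), a chromatin remodelling subunit of heart muscle, were lower. The count of 4 was 0 without either Tcf21 P7 library, 1 without Postn P7 replicate 1, Postn P7 replicate 2 or Tcf21 P30 replicate 3, 7 without Tcf21 P30 replicate 1 and 13 without both endothelial-rich libraries.

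Against Tcf21 P30, 5 of the 37 relatives were higher in Postn P7 and 3 lower, where 11.7% and 12.5% of all genes were. Gata3 (2.62 ± 0.41) and Tead1 (0.84 ± 0.14) were higher again, with Hopx (1.41 ± 0.34). Of the partners of MEIS1, Pbx3 (0.77 ± 0.17) was higher, while Meis2 (-0.45 ± 0.14) and Pknox1 (-0.57 ± 0.11), homeobox genes of the same superclass as Meis1, were lower. Mef2b (-2.75 ± 0.69) was lower too, at 0.159 to 1.89 CPM in the libraries compared. The count of 8 was 4 without Postn P7 replicate 2, 16 without Tcf21 P30 replicate 1 and 14 without both endothelial-rich libraries.

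**Figure D5:**
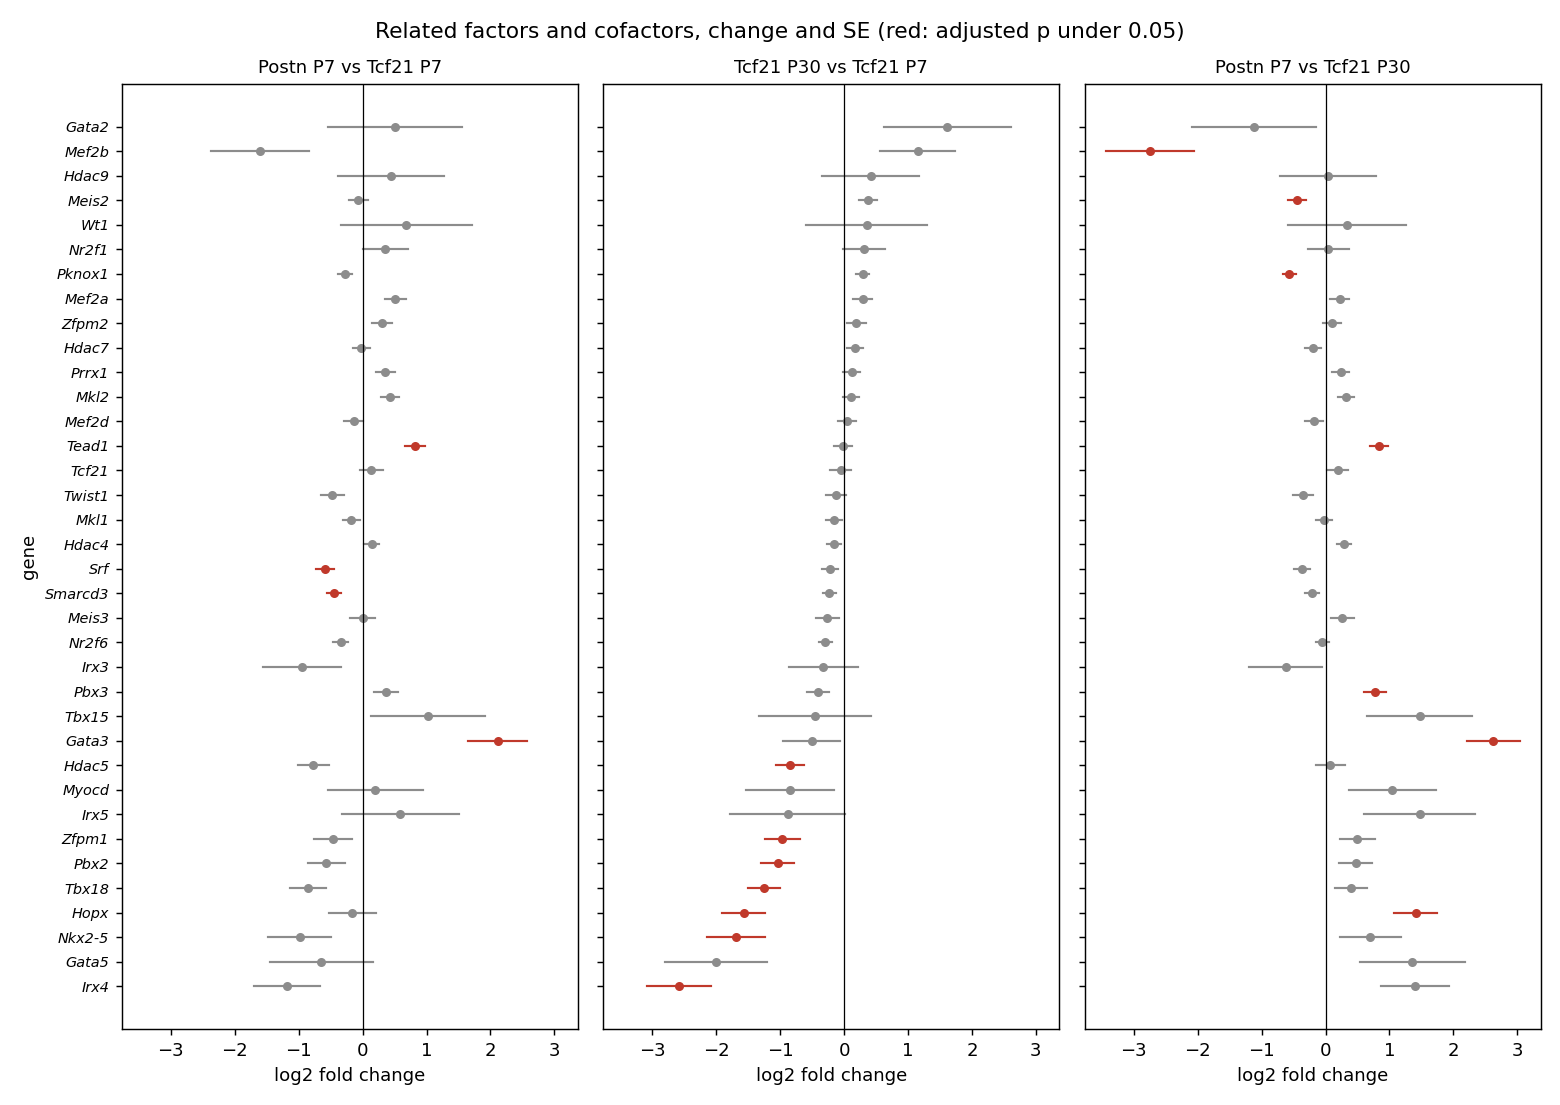
Log2 fold changes (points) with standard errors (lines) of the tested relatives and partners, with 1 gene not shown, in the 3 comparisons, ordered by the change with age, with called genes in red. The called changes between the ages that are shown are falls, from -0.85 for Hdac5 to -2.58 for Irx4.

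The genes whose profile over the 7 libraries was most like that of a called member were sought among 9937 genes with a mean of at least 10 CPM, by Pearson correlation of log2 CPM, as a description of these libraries. For Gata4 they were Angptl2 (r = 0.995), which encodes a secreted angiopoietin-like protein, and Hmgn1 (r = 0.995). For Tbx20 they were Adgra2 (r = 0.994), an adhesion receptor gene, and Klhdc10 (r = 0.99), and for Nr2f2 they were Tia1 (r = 0.988) and Selenoi (r = 0.985). The 7 points share their libraries and fall into 3 groups, and 193, 83 and 41 genes had a correlation above 0.95 with Gata4, Tbx20 and Nr2f2.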

How the data were processed

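The deposited table holds raw counts per gene symbol, whole numbers with 1 column per library and no normalization. Per the submitters' processing notes the aligner was STAR and the build GRCm38, and the sources used here do not give the authors' counting program, annotation or strand setting. The analysis ran in edgeR 4.0.16 under R 4.3.3. filterByExpr kept 17636 of 54735 symbols, TMM (trimmed mean of M values) scaled the libraries, and 1 robust quasi-likelihood model with 3 group means covered all 7. Standard errors were back-calculated from each log2 change and its F statistic, and so restate the test. Alternatives used DESeq2 1.42.0, limma-voom (limma 3.58.1), other scalings, no filter, only the groups compared, a replicate block and fewer libraries. Simulated counts with planted changes tested the scripts. Replicates differed by more than sampling noise (chi-squared per degree of freedom 3.55 to 42.0).

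Gene models came from GENCODE M21 (GRCm38) and promoter windows from RefSeq (GRCm38.p6), which held 5 of the 10 genes. Members and lists were chosen with earlier results of these data known. All members were described. Of the relatives, up to 4 of the largest called changes were named per comparison. Zfpm1, Zfpm2, Gata2, Hand1, Nr2f1, Nr2f6, Pbx3, Meis2 and Pknox1 were named beyond that rule, after their values were seen. Values of some list genes are not reported here, though counts over the lists include them. The 2 most alike genes were given for each member called in any comparison.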

Additional observations from a re-analysis of the deposited data

How the results depend on the processing

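The calls of Nr2f2 in both comparisons of Postn P7 and of Tbx20 between the ages held in all 16 alternatives. Over all members, comparisons and alternatives, 432 values kept their direction and side of the threshold, 9 lost a call, 25 gained one with the same sign and 14 changed sign, of which 2, both of Tbx3, also gained a call. In what follows the comparisons are Postn P7 with Tcf21 P7, Tcf21 P30 with Tcf21 P7 and Postn P7 with Tcf21 P30, in this order. Leaving out 1 library at a time gave 111 to 3250, 2418 to 6063 and 2810 to 5072 called genes, 1 to 5, 1 to 3 and 1 to 6 called members, and 0 to 7, 0 to 12 and 4 to 16 called relatives. Without both endothelial-rich libraries there were 3750 called genes in the first, 3 called members there and 7 in the last, and 13, 15 and 14 called relatives. Without a filter on low counts the first had 3442 called genes, 4 members and 7 relatives, and the second 4 members. With only the groups compared, the first had 3 members and 9 relatives, and DESeq2 called 7 relatives there. The cause of these shifts was not tested.

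Changes of sign concerned members that were not called with all libraries. With 1 library left out, Tbx5 ran from -0.32 to 0.40 in the first comparison (lowest without Postn P7 replicate 2). In the last it ran from -0.51 to 0.21, being 0.21 without Postn P7 replicate 1, 0.0098 without Tcf21 P30 replicate 2 and 0.17 without both endothelial-rich libraries. Tbx3 ran from -0.42 to 1.36 in the second, being -0.42 without Tcf21 P30 replicate 1, and it was -0.42 without both. In the last it ran from -0.43 to 1.33 with 1 library left out, and it was 0.044 with library size alone, 0.49 with limma-voom, 0.23 without Postn P7 replicate 2, 1.33 without Tcf21 P30 replicate 1 and 0.95 without both. In the second, Mef2c was -0.082 without Tcf21 P30 replicate 1 and -0.084 without both, and Meis1 ran from -0.078 to 0.015, the latter without Tcf21 P30 replicate 2. With a replicate block, 1556, 4553 and 3348 genes and 1, 2 and 3 members were called. Equally numbered libraries correlated with coefficients of 0.040 to 0.312 in their deviations from the group means, too low in some pairs for the numbers to be treated as pairs, and the labels do not say what a number stands for. With 2 or 3 libraries a group, and 81 to 110 counts for Tbx5, small differences were not detectable.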
